A study of Mus musculus with 37 samples.

Results

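Lineage marker genes are genes that one kind of blood cell expresses at a high level and others at a low level, and their levels show which cells a preparation holds. The 10 genes described here, Kit, Mpo, Ccr3, Emr1, Itgax, Timd4, Cd68, Cd4, Cd79b and Alas2, were taken from the deposited table of transcripts by name. They make up 10 of its 6509 genes and 25 of its 16993 transcripts, and a gene value below is the sum over the gene's transcripts (gene sum). The study compared how 5 kinds of mouse myeloid cells respond to bacterial lipopolysaccharide (LPS) and to the anti-inflammatory cytokine IL-10 by RNA-seq. All cells came from the C57Bl6cJ strain with no other genotype given in the labels. They were thioglycollate-elicited peritoneal macrophages kept for adherence to plastic, bone marrow neutrophils from a Percoll gradient that were then kept overnight with GM-CSF to mature, splenic dendritic cells (sDCs) from a kit for their enrichment, and 2 kinds of cell that were raised in culture from bone marrow, namely mast cells and eosinophils. Only the neutrophils received GM-CSF in this way, and each of their preparations pooled several mice. The paper reports that the purity of the cells was judged by their morphology and by flow cytometry. Macrophages, neutrophils, sDCs and mast cells were left untreated, or received IL-10, LPS, or IL-10 and then LPS, both agents at 100 ng/ml. The pretreatment with IL-10 took 4 h and LPS followed for another 4 h, so that LPS and a longer culture cannot be told apart in these groups. Eosinophils were only left untreated or given LPS. The first replicates of the untreated and the IL-10 macrophages were libraries from an earlier study.

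Each of the 18 groups has 1 value in the table, the authors' mean of 2 libraries. No spread between libraries, no interval and no test could therefore be computed, and every comparison below is a comparison of 2 means whose replicate error is unknown. The depth behind a value is not in the table either. The column totals ran from 10.2 to 11.5 M (mega), and all 18 columns shared the same highest value of 185338, which is a ceiling for any transcript. Levels in different cell types are thus relative to the other transcripts of that column. High values also recurred between genes and columns. The main Cd68 transcript had 94827 in macrophages with LPS, as Ccr7 had in sDCs with both agents. Kit-001, a Kit transcript, had 77376 in mast cells both untreated and with LPS. Very high values may thus mark a place in the order of a column more than an amount. Folds and shares of the highest transcripts carry this limit. In bulk RNA, fewer cells of a kind and less RNA per cell cannot be told apart.

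The markers have known roles. Kit is the receptor for stem cell factor, and is kept by mast cells while most other lineages lose it as progenitors mature. Mpo encodes myeloperoxidase, a granule enzyme whose transcript is made mainly by immature cells of the neutrophil line in bone marrow. Ccr3 is the eotaxin receptor of eosinophils. Emr1 encodes F4/80, the classic surface marker of mouse macrophages, which mouse eosinophils also carry. Itgax encodes CD11c, the integrin chain used to define dendritic cells. Timd4 encodes TIM-4, a phosphatidylserine receptor of resident macrophages and some antigen-presenting cells, and Cd68 encodes a lysosomal glycoprotein of macrophages. Cd4 marks helper T cells and one subset of mouse splenic dendritic cells. Cd79b encodes a signalling chain of the B cell receptor, and Alas2 the first enzyme of haem synthesis in red cell precursors.

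In untreated cells, 6 of the 10 genes had at least 80% of their summed level over the 5 cell types in a single cell type. Among all genes with a gene sum of at least 10 in an untreated group the share was 11.4% (738 of 6470). The median share held by the leading cell type was 81.4% over the 10 genes and 35.8% over all genes. Kit (90.5% in mast cells), Mpo (80.2% in neutrophils), Ccr3 (94.8% in eosinophils), Cd68 (95.9% in macrophages), Cd4 (95.5% in sDCs) and Alas2 (82.6% in neutrophils) passed 80%. Timd4 (76.1% in sDCs), Cd79b (67.6% in neutrophils), Itgax (61.7% in macrophages) and Emr1 (49.7% in macrophages) did not. Of these leaders, neutrophils for Cd79b and Alas2, sDCs for Timd4 and Cd4, and macrophages for Itgax are not the cells for which the gene is best known.

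**Figure D1:**
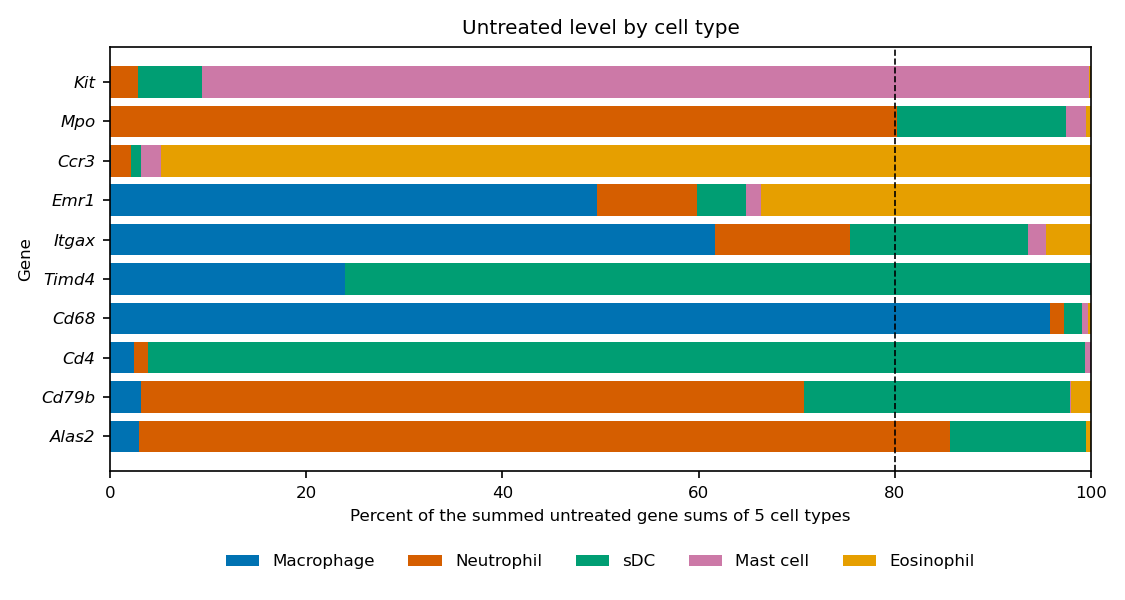
Bars give, for each of the 10 genes, the percent of its untreated gene sums over 5 cell types (authors' means) that each cell type held, and the dashed line marks 80%. Kit, Mpo, Ccr3, Cd68, Cd4 and Alas2 each pass the line in 1 cell type, while Emr1 is divided mainly between macrophages (49.7%) and eosinophils.

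The same picture held in most treated groups. For 8 of the genes, each group of the leading cell type lay above each group of every other cell type, and the exceptions were Emr1 and Timd4. Averaged over treatments, the leading cell type stayed the same for 9 genes, and for Emr1 it passed to eosinophils with 40.4%. The same counts were not made over all genes, so they do not show whether the markers differ from other genes in this.

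**Figure D2:**
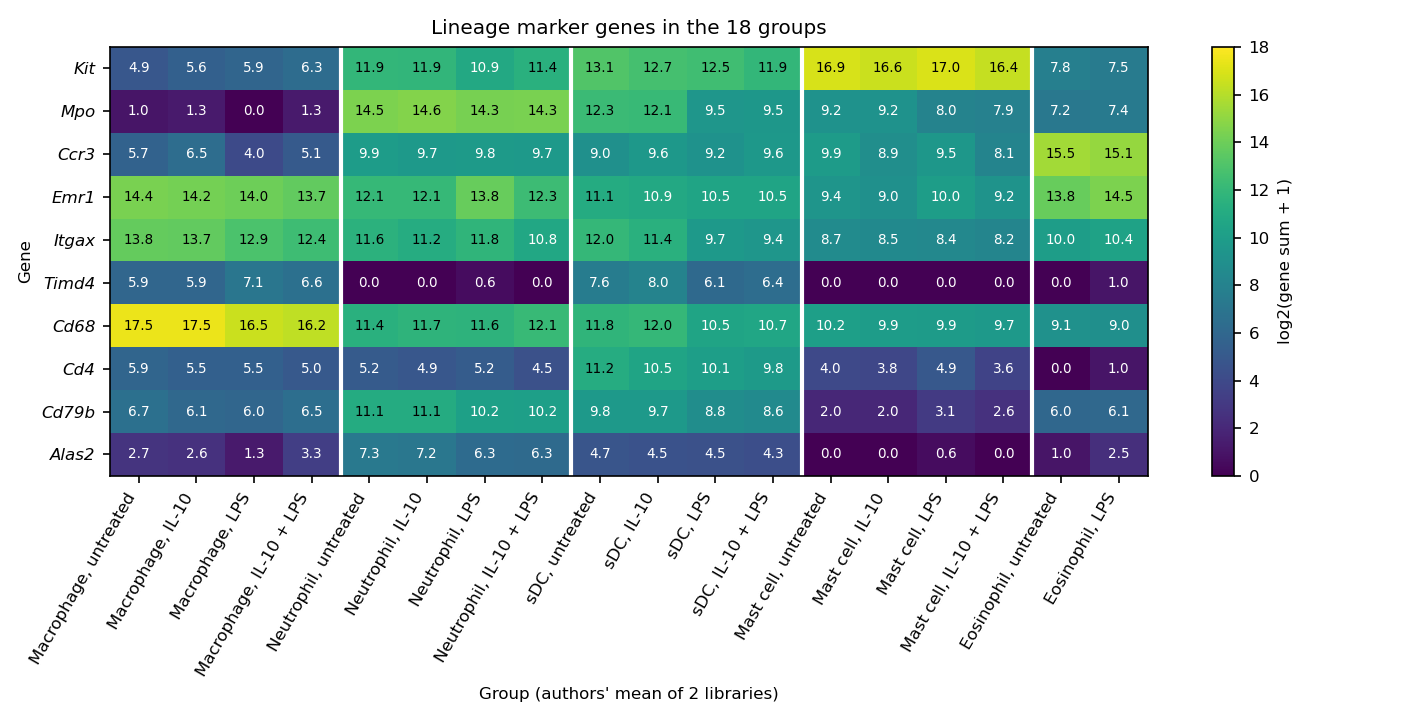
Each cell gives log2(gene sum + 1) of a gene (rows) in 1 of the 18 groups (columns), where a gene sum is made from the authors' means of 2 libraries, and white lines part the cell types. Kit stands out in mast cells, Ccr3 in eosinophils and Cd68 in macrophages, and Timd4 is at or near 0 outside macrophages and sDCs.

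Kit (ENSMUSG00000005672) lies at chr5:75970941-76052747 on the plus strand of NCBIM37 (mm9). In mast cells its gene sum was 122731.5 untreated, 98782.5 with IL-10, 130854 with LPS and 86014.5 with both. Untreated, this was the 6th highest gene sum of the column. The sDCs came next, with 8800 untreated, 6727 with IL-10, 5718.5 with LPS and 3925 with both. Neutrophils had 3906.5, 3699.5, 1882 and 2701.5 in that order. Eosinophils had 220.5 untreated and 176 with LPS, and macrophages between 29 and 79.5. The lowest mast cell group was thus far above the highest sDC group, and the untreated mast cell level was 13.9 times that of untreated sDCs. With LPS the neutrophil value was 2.08-fold lower (log2 difference -1.05), and in sDCs it was 1.54-fold lower.

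Kit is also shown by its sequence because its gene sum is divided between transcripts that encode different receptors. The annotation gives Kit-002 a longer exon 9, chr5:76034990-76035183, against chr5:76034990-76035171 in Kit-001. The 12 extra bases, chr5:76035172-76035183, lie in the coding part for the stretch outside the cell just before the membrane, and are in capitals in the transcript sequence around that junction.
Kit-002: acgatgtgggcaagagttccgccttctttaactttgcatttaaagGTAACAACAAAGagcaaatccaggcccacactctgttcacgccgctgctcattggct
Kit-001: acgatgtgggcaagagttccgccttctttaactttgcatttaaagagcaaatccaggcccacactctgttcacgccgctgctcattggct
Kit-001 is also annotated with a coding start 36 bases farther upstream, so that its coding sequence is the longer of the pair (2964 against 2940 bases). Kit-001, the form without the 12 bases, led in mast cells, sDCs and neutrophils. Kit-001 made up 63%, 71.3%, 59.1% and 72.5% of the mast cell sum in untreated, IL-10, LPS and combined groups. It made up 60.4% to 66.3% in the neutrophil groups and 53.6% to 64.2% in the sDC groups. In mast cells the share of Kit-001 was thus higher in both groups with IL-10 than in both without it. Kit-002 had 44712.5 untreated and 27867 with IL-10 alone, while Kit-001 had 77376 and 70470. In macrophages, Kit-001 was listed at 0 in 3 of 4 groups, at gene sums too low for a ratio to be read. The split between the transcripts is an estimate, since the transcripts share nearly all their bases. Kit-001 had the same value in mast cells, 77376, untreated and with LPS, so at this height its share may not follow an amount.

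Mast cells carried the other defining genes of their kind. Tpsb2, which encodes a mast cell tryptase, had a gene sum between 187513.5 and 187854.5 in the mast cell groups. These sums lie just above the ceiling of 185338 for a transcript, so a difference between the groups may be hidden. In the sDCs, which had the next highest Kit, Tpsb2, Tpsab1 and Mrgprb2 were listed at 0 in all 4 groups. Slc18a2, the vesicular amine transporter that is the highest list gene after Kit there, had 147 in untreated sDCs and 117062 in untreated mast cells. Without Kit, the sum over the mast cell list (7 of 18 listed genes are in the table) was 148 to 190.5 in sDCs against 374256.5 to 454732.5 in mast cells. In neutrophils Tpsab1 and Mrgprb1 were listed at 0 in every group, and Tpsb2 was at most 4.5. The part of other cells in the Kit values of sDCs and neutrophils was not tested. Myb, a transcription factor of haematopoietic progenitors, was highest untreated in eosinophils (4059) and mast cells (3694.5), both raised from bone marrow. It had 2465.5 in untreated neutrophils, 1438 in untreated sDCs and 2 in untreated macrophages. With LPS it had 1027 in sDCs, a 1.4-fold lower value, where Mpo was 6.85-fold lower.

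Mpo (ENSMUSG00000009350) lies at chr11:87607083-87617915 on the plus strand of NCBIM37. Neutrophils had gene sums of 22826 untreated, 25600 with IL-10, 20675 with LPS and 20878 with both. In sDCs the values were 4890, 4386, 714 and 731. Mast cells had 582.5, 573, 260 and 240, eosinophils 149 untreated and 170.5 with LPS, and macrophages at most 1.5. All neutrophil groups were above all others, and within sDCs and within mast cells both groups with LPS were below both groups without it. The untreated sDC level was 21.4% of that of neutrophils. With LPS, Mpo was 6.85-fold lower in sDCs (log2 difference -2.77) and 2.24-fold lower in mast cells (-1.16), but 1.1-fold lower in neutrophils. In sDCs only 1.14% of all genes had a lower log2 difference.

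Most Mpo signal came from 2 transcripts with the same coding sequence of 2157 bases and different starts, which lie 628 bases apart. Mpo-003, which starts at chr11:87607711, made up 64.5% to 93.7% of the sum in the 14 groups with a gene sum of at least 10. Its share in sDCs was 86% untreated and 92.4% with LPS, against 74.4% and 80.3% in neutrophils. The exons of Mpo share 512 of 3424 bases (15%) with Gm11505, a non-coding gene on the opposite strand. The sources used here do not say whether reads were counted by strand, so a part of the value may belong to that gene.

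The other primary granule genes followed Mpo in sDCs. Elane, which encodes neutrophil elastase, had 1767.5, 1849, 366.5 and 351.5 in sDCs (untreated, IL-10, LPS, both), and was 4.82-fold lower with LPS. Prtn3, which encodes proteinase 3, had 1134, 1193, 280.5 and 304.5, and was 4.04-fold lower. Both genes thus divided the sDC groups by LPS, with no overlap, as Mpo did. In neutrophils the same genes differed little by group, with Elane between 10179 and 13402 and Prtn3 between 8779.5 and 10365. Untreated sDCs had 13.2% of the neutrophil level of Elane and 12.9% of that of Prtn3. Genes of mature neutrophils were lower relative to neutrophils. Mmp8, a collagenase of late granules, had 1362.5 in untreated sDCs, which is 1.11% of the neutrophil level of 122455. Mmp9, another late granule protease, had 656 (0.849%), and Cxcr2, the chemokine receptor of mature neutrophils, had 136 (0.258%). Retnlg, a resistin-like gene of neutrophils, had 339 (1.67%). The ratio to neutrophils was thus higher for Mpo, Elane and Prtn3 than for these 4 genes in untreated cells. It was not so with LPS. In neutrophils Cxcr2 was then 16.4-fold lower, Mmp8 7.09-fold lower, and Mmp9 and Retnlg also lower (12701.5 and 3943.5). With LPS the sDC level was 3.45% of that of neutrophils for Mpo, 3.6% for Elane and 2.89% for Prtn3. For Mmp9 it was 6.06%, for Retnlg 4.39%, for Cxcr2 2.32% and for Mmp8 2.19%. Ly6g, at 13 in untreated sDCs and 161.5 in neutrophils, lay between them, and Cxcr1 was listed at 0 in untreated sDCs and had 94.5 in neutrophils. Of the neutrophil list, 9 of 19 genes are in the table, and their sum without Mpo was 2055 to 6884.5 in sDCs and 57192 to 312815 in neutrophils. The part of any neutrophil-line cells in the sDC values was not tested.

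**Figure D3:**
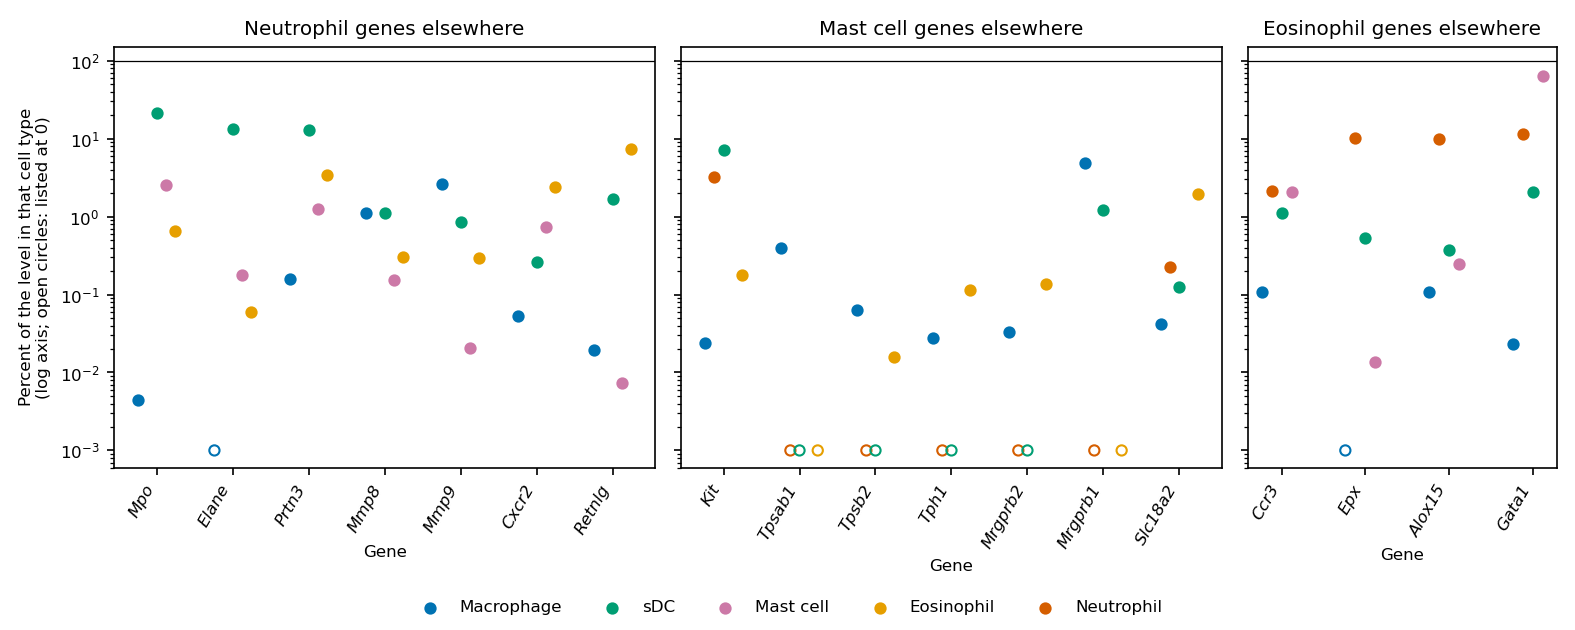
Points give the untreated level of a gene in each other cell type as a percent of its level in the cell type named above the panel, on a log axis, with open circles at the bottom for values listed at 0 (authors' means, no error). In sDCs Mpo (21.4%), Elane (13.2%) and Prtn3 (12.9%) lie well above Mmp8, Mmp9 and Cxcr2, Kit lies far above the mast cell genes, and in neutrophils Epx (10.3%) lies above Ccr3 (2.11%).

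Ccr3 (ENSMUSG00000035448) lies at chr9:123936703-123946421 on the plus strand of NCBIM37. In eosinophils its gene sum was 45989.5 untreated and 36018 with LPS. Neutrophils had gene sums of 971, 816, 914 and 846.5, and mast cells 963, 474, 738.5 and 282 (untreated, IL-10, LPS, both). The sDCs had 517, 779, 589 and 773, and macrophages 50, 87, 15.5 and 32.5. The eosinophil values were above every other group, and the untreated value was 47.4 times that of neutrophils. In mast cells both groups with IL-10 were below both groups without it, by 2.03-fold without LPS and 2.62-fold with LPS. In sDCs the order was the opposite, with both IL-10 groups above the others, by 1.51-fold and 1.31-fold. In macrophages Ccr3 was 3.23-fold lower with LPS and 2.1-fold higher when IL-10 was added to LPS, at values too near the lower end of the table for firm statements. The 2 Ccr3 transcripts differ by 3 bases in length (3273 and 3270), so only their sum was used.

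Similar Ccr3 levels went with very different levels of other eosinophil genes. Epx, which encodes eosinophil peroxidase, was at the ceiling of 185338 in both eosinophil groups. It had 19128.5 in untreated neutrophils and 18734 with LPS, 980.5 in untreated sDCs and 25 in untreated mast cells, and was listed at 0 in all macrophage groups. Alox15, a lipoxygenase of eosinophils, had 77214.5 in untreated eosinophils. The neutrophil value was 7628, that of sDCs 291 and that of mast cells 189. Neutrophils thus had 10.3% of the eosinophil Epx and 9.88% of the Alox15, but 2.11% of the Ccr3. With Epx at the ceiling, the level in eosinophils may be understated. Mast cells, with 2.09% of the eosinophil Ccr3, had 0.0135% of the Epx. The 4 eosinophil list genes in the table (of 12 listed) summed to 27791.5 to 31473 in the neutrophil groups and 284986.5 to 312851 in eosinophils. What part of the neutrophil Epx came from eosinophils or their precursors was not tested.

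Gata1, a transcription factor of eosinophils, mast cells and red cell precursors, is on the eosinophil and the erythroid list. Its untreated gene sum was highest in eosinophils (4309), followed by mast cells (2757), neutrophils (498), sDCs (89) and macrophages (1). As GATA factors bind the word GATAA, its occurrence was counted on both strands (GATAA or TTATC) in the RefSeq promoters of build GRCm38.p6, from 250 bases before to 50 after a start. The table of promoters held 7 of the 10 genes, and 3 of them (Ccr3, Alas2 and Itgax) had the word. Of all 32851 promoters, 25.4% had it. The promoters of Ccr3 (chr9:124021721-124022020, plus strand) and Alas2 (chrX:150547167-150547466, plus strand) are shown because these are the markers of eosinophils and of red cell precursors, with the word in capitals.
Ccr3: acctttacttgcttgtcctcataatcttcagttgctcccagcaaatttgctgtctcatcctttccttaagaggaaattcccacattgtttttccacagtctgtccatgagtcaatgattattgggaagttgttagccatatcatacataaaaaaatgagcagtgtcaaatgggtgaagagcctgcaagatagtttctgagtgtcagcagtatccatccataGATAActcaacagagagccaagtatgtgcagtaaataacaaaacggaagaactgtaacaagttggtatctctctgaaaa
Alas2: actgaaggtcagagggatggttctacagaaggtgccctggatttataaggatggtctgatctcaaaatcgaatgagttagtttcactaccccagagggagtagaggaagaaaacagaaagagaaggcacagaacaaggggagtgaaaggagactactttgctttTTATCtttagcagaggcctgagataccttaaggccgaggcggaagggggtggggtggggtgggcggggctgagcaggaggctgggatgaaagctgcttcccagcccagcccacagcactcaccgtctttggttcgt
The word begins 29 bases before the start in Ccr3 and 86 bases before it in Alas2. These are matches of letters only, and binding was not measured.

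Emr1 (ENSMUSG00000004730) lies at chr17:57498109-57622952 on the plus strand of NCBIM37. Macrophages had gene sums of 21201 untreated, 19354 with IL-10, 16808 with LPS and 13108 with both. Eosinophils had 14338.5 untreated and 22514.5 with LPS, the highest of the 18 groups. Neutrophils had 4346, 4305.5, 14667.5 and 5157.5. The sDCs had 2133.5, 1886, 1457.5 and 1426, and mast cells 667, 522, 1015.5 and 605. Emr1 was thus not restricted to macrophages, and the eosinophil groups overlapped with the macrophage groups. With LPS it was 3.37-fold higher in neutrophils (log2 difference 1.75), above the untreated eosinophil level, and with IL-10 added before LPS it was 2.84-fold lower than with LPS alone (-1.51). The neutrophil group with both agents was close to the untreated one. Among all genes in neutrophils, 95.6% had a lower log2 difference with LPS, and 1.65% a lower one when IL-10 was added to LPS. The direction with LPS was also upward in eosinophils (1.57-fold) and mast cells (1.52-fold), and downward in macrophages and sDCs.

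One other macrophage gene of the list followed Emr1 in neutrophils. Marco, a scavenger receptor of macrophages, was listed at 0 untreated and with IL-10, and had 241 with LPS and 14.5 with both. Its macrophage values were 2002, 2009, 5425.5 and 4422.5. The others did not have this pattern. Cd68 was 1.13-fold higher with LPS there, Timd4 was at most 0.5, and Mrc1, the mannose receptor of macrophages, had 454.5 untreated and 124.5 with LPS. The macrophage list without Emr1, Cd68 and Timd4 (7 of 20 genes in the table in all) summed to 367 to 784 over the neutrophil groups and to 7665 to 16562 over the macrophage groups.

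Cd68 (ENSMUSG00000018774) lies at chr11:69477715-69479655 on the minus strand of NCBIM37. Macrophages had 185724.5 untreated, 185681 with IL-10, 95151.5 with LPS and 77545.5 with both. The sDCs had 3544, 4023.5, 1486 and 1607, and neutrophils 2788, 3319, 3140 and 4387.5. Mast cells had 806.5 to 1147.5 and eosinophils 547 and 496.5. Every macrophage group was above all others, and the untreated level was 52.4 times that of sDCs. The main Cd68 transcript was at the ceiling in untreated and IL-10 macrophages, so the 1.95-fold lower value with LPS may understate the difference, and an effect of IL-10 alone could not be seen. Per kilobase, Cd68 had 151000 in untreated macrophages, Emr1 6770 and Itgax 3430. In sDCs Cd68 was 2.38-fold lower with LPS (log2 difference -1.25).

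Timd4 (ENSMUSG00000055546) lies at chr11:46624302-46657834 on the plus strand of NCBIM37 and has 1 transcript in the table. The sDCs had 187.5 untreated, 262 with IL-10, 70 with LPS and 84 with both. Macrophages had 59, 60, 135 and 98.5. Neutrophils and eosinophils had at most 1, and mast cells were listed at 0 in all groups. The ranges of sDCs and macrophages overlapped, and LPS went with opposite directions in them. Timd4 was 2.68-fold lower in sDCs (log2 difference -1.41) and 2.29-fold higher in macrophages (1.18). The difference between these directions was not tested.

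Itgax (ENSMUSG00000030789) lies at chr7:135273061-135294171 on the plus strand of NCBIM37. Its highest values were in macrophages, with 13861 untreated, 13270 with IL-10, 7512.5 with LPS and 5445 with both. The sDCs had 4075.5, 2753, 818.5 and 697.5. Neutrophils had 3094.5, 2278.5, 3504.5 and 1769, eosinophils 1039.5 and 1319, and mast cells 297.5 to 407.5. All macrophage groups lay above all sDC groups, and untreated sDCs had 29.4% of the macrophage level. With LPS, Itgax was 4.98-fold lower in sDCs (log2 difference -2.31) and 1.85-fold lower in macrophages. In sDCs 1.69% of all genes had a lower log2 difference with LPS. Its transcripts, Itgax-201 and Itgax-202, differ only at their ends, by 21 bases at the front, and their shares swung from 0% to 79.1% for Itgax-201, so the division between them was not read.

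In untreated cells, other genes of dendritic cells were highest in the sDC preparation. Ccr7, the receptor that guides dendritic cells to lymph nodes, was at the ceiling of 185338 in untreated and IL-10 sDCs. It had 140082.5 with LPS and 94827 with both, and at most 1235.5 in any group of the other cell types. Ly75, which encodes the uptake receptor DEC-205, had 7627.5 in untreated sDCs and 25860.5 with LPS, against 876 in untreated macrophages. Xcr1, a receptor of cross-presenting dendritic cells, had 185.5 to 205.5 in sDCs and at most 63.5 elsewhere. Clec9a, a receptor for dead cells on the same subset, had 243.5 in untreated sDCs and 100 in untreated neutrophils. It was 4.92-fold lower with LPS in sDCs (49.5), below the 103.5 of neutrophils with LPS. With both agents neutrophils had 60, mast cells 38.5 and sDCs 27.5. Clec4a4, a lectin of another dendritic cell subset, had 1103.5 untreated and 476 with LPS in sDCs, and at most 8 elsewhere. With LPS these genes thus differed in direction, with Clec9a and Clec4a4 lower as Itgax was, Ly75 higher and Xcr1 nearly level. Of the 6 listed dendritic cell genes in the table (of 20), 5 had their highest untreated value in sDCs, as 20.1% of all genes did. Itgax was the exception.

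Cd4 (ENSMUSG00000023274) lies at chr6:124814710-124838239 on the minus strand of NCBIM37 and has 1 transcript in the table. The sDCs had 2306.5 untreated, 1444 with IL-10, 1092 with LPS and 876 with both. Macrophages had 31 to 58.5, neutrophils 21.5 to 37, mast cells 11.5 to 29.5 and eosinophils 0 and 1. Every sDC group was above all others, and the untreated level was 39.4 times that of macrophages. Cd4 was lower in each treated sDC group, by 1.6-fold with IL-10 and 2.11-fold with LPS.

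T and NK cell genes were also highest in the sDC preparation. Of the 7 such genes in the table (of 22 listed), 5 had their highest untreated value there, as 20.1% of all genes did. Tcf7, a transcription factor of T cells, had 15963 in untreated sDCs and 15383 with LPS, and at most 194 in any other group. Zap70, the kinase of the T cell receptor, had 276 untreated and 280.5 with LPS, and at most 19 elsewhere. Klrd1, which encodes the NK receptor chain CD94, had 1906.5 untreated and 248 with LPS. Cd4 and Klrd1 were thus lower with LPS in sDCs while Tcf7 and Zap70 were nearly level. No CD3 chain gene is in the table that was used. The part of T or NK cells in the Cd4 value was not tested.

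Cd79b (ENSMUSG00000040592) lies at chr11:106172655-106176076 on the minus strand of NCBIM37. Neutrophils had 2143.5 untreated, 2126 with IL-10, 1195 with LPS and 1155 with both. The sDCs had 860.5, 813.5, 452 and 398. Macrophages had 61.5 to 101, eosinophils 63.5 and 65.5, and mast cells 3 to 7.5. Each neutrophil group was above each sDC group, and in both preparations the groups with LPS were below those without it, by 1.79-fold in neutrophils and 1.9-fold in sDCs for LPS alone.

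B lineage genes followed in both preparations, in different proportions. Of 19 listed genes 9 are in the table, and 7 had their highest untreated value in neutrophils, as 12.6% of all genes did. Ebf1, a transcription factor of early B cells, had 1261.5 in untreated neutrophils and 68 in untreated sDCs. Pax5, which fixes B cell identity, had 705.5 and 25, and Vpreb3, a gene of B cell precursors, had 717.5 and 4.5. Faim3, the Fc receptor for IgM, had 814.5 and 754.5. Relative to neutrophils, the sDC level was thus 92.6% for Faim3, 40.1% for Cd79b and 0.627% for Vpreb3. With LPS these genes did not move together. In sDCs Faim3 was 2.4-fold lower and Pax5, at low values, was 2.38 times the untreated level, and in neutrophils Faim3 was 2.56-fold lower and Pax5 was 1.08 times the untreated level. In mast cells Vpreb3 was listed at 0 in all groups. The sum over the B cell list without Cd79b was 4668 to 7422.5 in neutrophils and 2090 to 2546 in sDCs. It was 1910.5 to 5310 in macrophages, where Blnk and Bank1, which myeloid cells can also express, led. Eosinophils had 1898 to 2200.5, close to the sDC range, and Bank1 alone had 2171 in untreated eosinophils. Mast cells had 106.5 to 307. For the neutrophils, the paper names lymphocytes as usual contaminants, and reports few cells that resembled macrophages. The part of B lineage cells in the neutrophil and sDC values of Cd79b was not tested.

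Alas2 (ENSMUSG00000025270) lies at chrX:146981918-147005181 on the plus strand of NCBIM37. Neutrophils had 152 untreated, 142 with IL-10, 79 with LPS and 75.5 with both. The sDCs had 19 to 25.5, macrophages 1.5 to 9, eosinophils 1 and 4.5, and mast cells at most 0.5. Neutrophil groups were above all others, and the groups with LPS were below those without it, by 1.92-fold for LPS alone. Apex2 covers the gene on the opposite strand, and its exons share 311 of the 2403 exon bases of Alas2 (12.9%). Apex2 had gene sums of 168 to 395 over all groups, among them the mast cell groups with Alas2 at most 0.5. Whether reads were counted by strand is not known here, and the part of Apex2 in the Alas2 values was not tested.

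Of the 4 globin genes in the table, Hbb-b1, Hba-a1 and Hba-a2 were also highest in neutrophils and next in sDCs. Hbb-b1, a beta globin, had 4485.5, 4272.5, 2346.5 and 2647 in neutrophils and 1155, 931.5, 807 and 763.5 in sDCs (untreated, IL-10, LPS, both). Hba-a2, an alpha globin, had 3150.5 in untreated neutrophils and 745 in sDCs. In macrophages Hbb-b1 was 228 to 352, and in the cultured mast cells and eosinophils it was at most 8.5. Hbb-b2, another beta globin, had a different order, with 804 in untreated neutrophils, 798 in untreated eosinophils, 228 in sDCs, 165.5 in mast cells and 26.5 in macrophages. With LPS, Hbb-b1 was 1.91-fold lower and Hba-a2 1.78-fold lower in neutrophils, close to the 1.92-fold of Alas2. The near-identical globin copies share reads, so that their division among Hba-a1, Hba-a2 and the beta genes is uncertain. Of the erythroid list, 11 of 24 genes are in the table. Untreated, 5 of them were highest in neutrophils, namely Alas2 and the 4 globin genes, where 12.6% of all genes were highest in neutrophils. The others were highest elsewhere, 3 in macrophages, 2 in eosinophils and 1 in mast cells. Klf1 of this list had 1.5 in untreated neutrophils and 131 in untreated eosinophils, and Epor had 14 in untreated neutrophils and 34 in untreated mast cells. The part of red cell precursors in the neutrophil values was not tested. Tfrc, the transferrin receptor that many kinds of cell express, had 5128.5 in untreated macrophages and 3581.5 in untreated neutrophils.

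**Figure D4:**
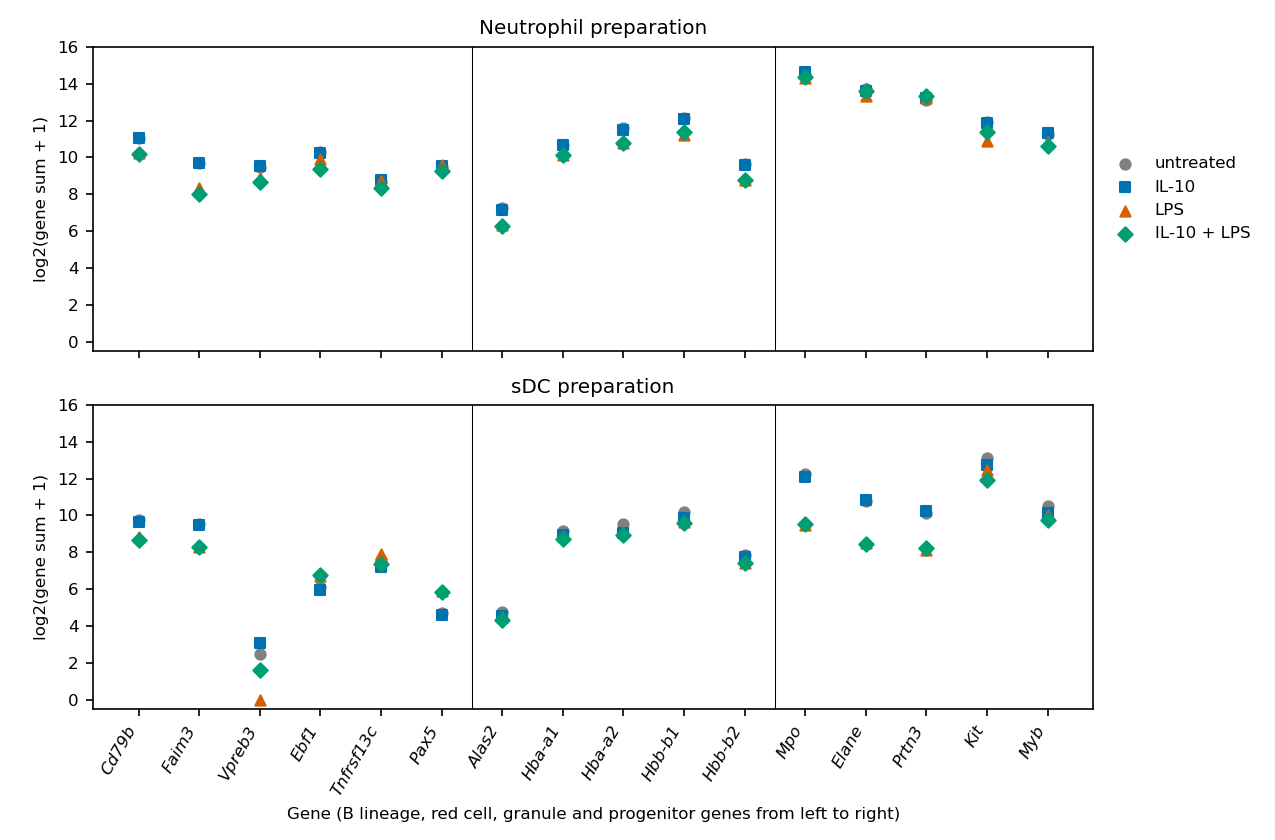
Points give log2(gene sum + 1) of B lineage, red cell, granule and progenitor genes (x axis) in the neutrophil (top) and sDC (bottom) preparations, by treatment (authors' means, no error). In sDCs Mpo, Elane and Prtn3 lie lower in both groups with LPS, while in neutrophils they lie close together, and Vpreb3 is high only in neutrophils of these 2 preparations.

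Changes with the agents were counted over all 10 genes as differences of at least 2-fold on log2(gene sum + 1), in cell types in which a gene reached 10 in at least 1 group. With LPS, 10 of 41 pairs of gene and cell type passed 2-fold, 2 upward and 8 downward, where 15.8% of all such pairs in the table passed. With log2 differences centred on the median of all genes the split was 4 upward and 7 downward. Kit in macrophages (1.13) and Cd4 in mast cells (1.01) then passed upward, and Cd4 in sDCs (-0.94) no longer passed. Among all pairs, 7.6% passed upward and 8.23% downward. Macrophages had 2 of 8 markers past the threshold, where 27.6% of all genes were. Neutrophils had 2 of 9 (16.6% of all genes) and sDCs 5 of 10 (20.5%). For mast cells it was 1 of 7 (10.2%), and for eosinophils 0 of 7 (2.86%). The sDC calls were Mpo, Itgax, Timd4, Cd68 and Cd4, all downward, where 11.5% of all genes were lower. The median log2 difference with LPS in sDCs was -1.0 over the 10 genes and -0.14 over all genes. In macrophages it was -0.55 against -0.15, and in neutrophils -0.09 against -0.03. With LPS, the median marker lay farthest below the median gene in the sDC preparation.

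IL-10 went with fewer differences. With IL-10 alone, 1 of 34 pairs passed 2-fold, Ccr3 in mast cells, where 3.52% of all pairs passed and 1.66% were lower. When IL-10 was added before LPS, 4 of 34 pairs passed against LPS alone, where 6.7% of all pairs passed, 2.92% upward and 3.79% downward. These were Emr1 in neutrophils, Ccr3 and Cd4 in mast cells (all lower) and Ccr3 in macrophages (higher), and those of Cd4 and of macrophage Ccr3 rest on gene sums under 50. Itgax in neutrophils was just outside, at 1.98-fold lower. The LPS and the IL-10 comparisons share untreated groups, and the LPS groups serve in both comparisons with LPS.

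**Figure D5:**
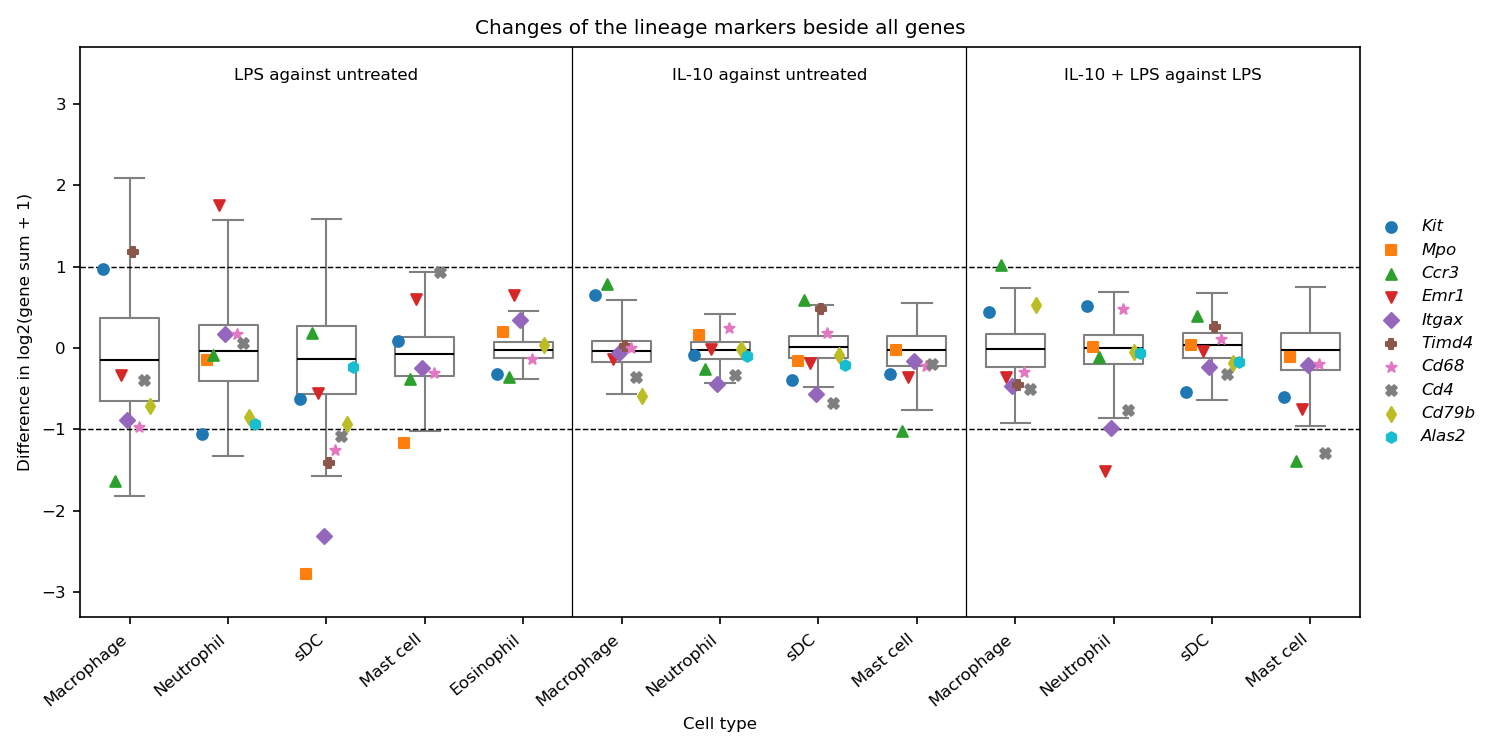
Coloured symbols give the difference in log2(gene sum + 1) of each marker in each cell type for 3 comparisons, and boxes give the quartiles, medians and 5th to 95th percentiles over all genes kept, with dashed lines at 2-fold. Mpo (-2.77) and Itgax (-2.31) in sDCs and Emr1 (1.75) in neutrophils lie outside the whiskers with LPS, and few symbols pass the lines with IL-10.

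The genes whose pattern over the 18 groups was most like that of a marker were found by Pearson's r of log2(gene sum + 1) among 6248 genes that reached 50 in a group. These are descriptions, since the groups of a cell type share their cells. For Kit they were Srcap (0.97), Las1l (0.96) and Upf1 (0.96), for Mpo Fam55b (0.97), Smek2 (0.96) and N4bp2 (0.94), and for Ccr3 2810021B07Rik (0.95), Zcchc8 (0.94) and Arl6ip6 (0.93). Emr1 was most like 2310009B15Rik (0.97), Gpsm2 (0.95) and Fgd6 (0.94), and Itgax most like Amdhd2 (0.98), 5430437P03Rik (0.95) and Dock1 (0.95). Cd68 was nearest to Slc9a4 (0.98), Serpinh1 (0.98) and Tceal8 (0.97), Timd4 to Foxs1 (0.99), Dsg2 (0.98) and H2-D1 (0.98), and Cd4 to Lpcat1 (0.97), Zdhhc15 (0.96) and Lysmd2 (0.95). Cd79b and Alas2 shared neighbours, E030030I06Rik (0.98 for both) and Pou2af1 (0.97 and 0.96), which encodes a B cell co-activator. The third neighbour was Faim3 (0.96) for Cd79b and Ebf1 (0.97) for Alas2. The markers of B cells and of red cell precursors were both highest in neutrophils and next in sDCs, but their correlation with each other was not computed. In macrophages Cd79b had 61.5 to 101 and Alas2 had 1.5 to 9.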

How the data were processed

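RNA was extracted from the 5 cell types with TRIzol, and biological replicates came from independent mice. The authors aligned reads to Ensembl 67 (mm9) transcripts with RSEM 1.2.1 and Bowtie 0.12.9. Tag counts were corrected by GC content (EDASeq 1.8.0), and the 2 replicates per group were averaged. The deposited values are therefore a score and not counts. All were multiples of 0.5. Every transcript reached at least 13 in some group, by a filter that the sources do not describe. The table had 17016 lines, of which 1 was broken and 22 (0.129%) had no gene name. Of 37 samples, 36 stand behind the 18 columns and 1 was not used here. Depth per library is unknown from the table.

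Transcripts were summed per gene (Python 3.11.15, numpy 2.4.6, pandas 2.3.3, matplotlib 3.10.9). All genes with a group value of at least 10 in the cell type entered a comparison, a pseudocount of 1 was used and 2-fold was called. Because the columns are means, the planned description had no test. The calling step was tested on simulated data. Transcripts were matched to the GENCODE annotation of NCBIM37, which held all 25. Promoters are from RefSeq (GRCm38.p6).

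The genes named were the 10 markers, their 3 most similar genes each, and the 3 highest genes of a list in a preparation and those at 0. Other list genes were named after their values were seen, among them Myb, Mmp9, Cxcr2, Retnlg, Marco, Xcr1, Clec9a, Zap70, Ebf1, Pax5, Vpreb3 and the globins. The markers and lists were chosen with earlier results of these data known. Alternatives were another fold, pseudocount, filter, scaling and centring, and the leading transcript in place of the sum. Of the B cell list, 1 gene is not reported here.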

Additional observations from a re-analysis of the deposited data

How the results depend on the processing

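With 2 replicates already averaged, leaving out a replicate could not be done. No paired analysis was possible because the table holds 1 mean per group. The count of pairs of gene and cell type passing with LPS, 10 at 2-fold, was 21 at 1.5-fold and 4 at 3-fold. It was 16 with no filter on low values. With IL-10 alone it was 1 at 2-fold, 5 at 1.5-fold and 0 at 3-fold. For IL-10 and LPS against LPS it was 4 at 2-fold, 8 at 1.5-fold, 0 at 3-fold, 2 with a pseudocount of 10 and 7 with the leading transcript. The pairs added without the filter had gene sums under 10. Shares over all pairs in the table were computed at the main settings only, so these other counts have no such share beside them. No log2 difference that passed 2-fold with the main settings changed its sign under any of the others. Of 109 differences, 22 crossed the threshold or moved by at least 1.5-fold with the leading transcript, 3 with centring, among them Cd4 with LPS in sDCs (-0.94), and none with scaling to column totals. With the leading transcript the single IL-10 call was Itgax in mast cells (1.39) in place of Ccr3 in mast cells (-0.98). For Itgax the gene sum gave the opposite direction there, with a log2 difference of -0.15 that did not pass. The number of markers with at least 80% of the untreated level in 1 cell type was 6, and between 4 and 7 under the alternatives. What the missing depth limits is every low value: gene sums under about 50 (Alas2 outside neutrophils, some groups of Ccr3 and Kit in macrophages, Cd4 in mast cells) have an unknown counting error.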

Other observations

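Genes of stromal and epithelial cells were on a list of 9, of which 7 are in the table, and the collagen genes stood out in the macrophage preparation. Col1a2, a chain of type I collagen, had gene sums of 9441.5 untreated, 7847 with IL-10, 10567.5 with LPS and 9020 with both in macrophages, and at most 1.5 in any group of the other cell types. Col3a1, a chain of type III collagen, had 1432 to 1611 in macrophages and was listed at 0 in every other group. Krt8, a keratin of simple epithelia and mesothelium, had 96 to 152 in macrophages and at most 3 elsewhere. Untreated, 5 of the 7 genes were highest in macrophages, where 24.4% of all genes were highest, and Pecam1 and Krt18 were the exceptions. Pecam1, an adhesion molecule of endothelial and blood cells, had 33.5 in untreated macrophages and 7946.5 in untreated mast cells. Krt18, another keratin, had 60.5 in untreated macrophages and 117.5 in eosinophils. Kdr, a receptor of endothelial cells, was highest untreated in macrophages (382), but had 1705 in sDCs with LPS. Cdh5, an endothelial cadherin, had 25.5 to 62.5 in macrophages and at most 20 elsewhere. The part of stromal or mesothelial cells of the peritoneal lavage in these values was not tested.

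Of the progenitor and megakaryocyte list, 5 of 12 genes are in the table. Itga2b, the platelet integrin chain that mast cell cultures can also express, had 31309.5 in untreated mast cells, 9501.5 in eosinophils, 1122.5 in neutrophils, 534 in sDCs and 0.5 in macrophages. Myb had 9821.5 in mast cells with LPS and 3694.5 untreated. Gp1ba, a platelet glycoprotein, had 8541.5 in untreated mast cells and 3117 with IL-10 and LPS.

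Ly6g, the gene of a surface antigen used to identify mouse neutrophils, had 161.5 in untreated neutrophils and 188.5 in untreated eosinophils, and was listed at 0 in macrophages.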
